A study of Mus musculus with 21 samples.

Results

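The 2 main subsets of spleen dendritic cells (DCs) were compared on 6 of the 21 expression arrays of the study: 3 arrays titled 33D1_Flt3L and 3 titled DEC205_Flt3L, chosen by their titles. The names are those of antibodies. 33D1 marks the CD11c-high spleen DCs that lack CD8, and DEC205 is a surface receptor of the DCs that have it. All 6 arrays held RNA of sorted splenic DCs from C57BL6 mice, each array a pool from 20 mice that had been injected with what the labels call Flt3L Melanom and killed between day 10 and day 12. Flt3L is the ligand of the receptor Flt3, which drives DC growth. The ligand and the melanoma came together in every pool of both groups, so neither can be told apart from the other, and the labels do not say whether the tumour cells made the ligand. No age is given. For 1 comparison the same subsets of wild-type C57BL6 mice were used, titled 33D1_WT and DEC205_WT. They had 3 arrays each and pools of 40 to 80 mice. The B cell and T cell arrays of the study were not compared. Together with all other arrays, they entered the estimate of spread, the constant added to signals, the signal filter and the choice of probe set per gene. The study made these arrays to find the membrane molecule that 33D1 recognises and to compare antigen presentation between the subsets.

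DCs take up antigen, digest it and show the peptides to T cells on MHC molecules. Of the spleen subsets, the CD8-positive one is known for taking up dying cells and presenting their antigens on MHC class I to CD8 T cells, and it depends on the transcription factors Irf8 and Batf3. The CD8-negative subset, many of whose cells carry CD4, is known for presentation on MHC class II to CD4 T cells, and it depends on Irf4, Relb, Notch signalling and the lymphotoxin receptor. Both grow in number when Flt3 ligand is supplied.

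A signal is the deposited brightness of a probe set on a linear scale, and each array had been scaled to the same trimmed mean. A difference is the mean log2(signal + 48.6) of the 33D1 arrays minus that of the DEC205 arrays, given with its standard error from limma (n = 3 arrays a subset). Positive values are higher in 33D1 DCs, and the added 48.6 makes the differences of dim genes smaller. A gene was called at a Benjamini-Hochberg adjusted p under 0.05, two-sided, over 23946 probe sets, and each gene was read from its brightest probe set. Array medians lay between 121.9 and 162.3. The number of arrays limits the precision. Whether the 3 pools of a subset came from separate sorts is not stated, so a p-value covers the spread from pool to pool and no more, and part of that spread may be technical. The signals come from bulk RNA, in which fewer cells of a type and less RNA per cell cannot be told apart.

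The sort antigens followed the labels. Ly75, which encodes DEC205, had signals of 197, 124 and 125 on the 33D1 arrays and 2768, 2112 and 2324 on the DEC205 arrays (-3.65 ± 0.22, adjusted p = 4.32e-11). Cd8a, the CD8 alpha chain, had 132, 169.9 and 489 on the 33D1 arrays and 11916, 7460.5 and 8475 on the DEC205 arrays (-5.05 ± 0.34, adjusted p = 1.94e-10), and Cd4 had 1829.9, 1588 and 1794 on the 33D1 arrays and 24.2, 23 and 25.1 on the DEC205 arrays (4.62 ± 0.30, adjusted p = 1.29e-10). The 2 subsets did not overlap for any of these 3 genes. Cd8b1, the CD8 beta chain that T cells carry, was dim on all 6 arrays, with 11.3, 22.8 and 105 on the 33D1 arrays and 14.8, 19.5 and 48.8 on the DEC205 arrays and no call (0.22 ± 0.28, adjusted p = 0.677). Itgax, which encodes CD11c, had 14520.2, 15417 and 16943 on the 33D1 arrays and 8904, 9551 and 10361 on the DEC205 arrays and was not called (0.70 ± 0.31, adjusted p = 0.126). With equal replicate numbers as a block on the 6 arrays it was called (adjusted p = 0.000177). Clec4a4, which encodes the lectin that 33D1 binds, has no probe set with a single symbol here and was not analysed.

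Array 3 of the 33D1 group carried some DEC205 transcripts. Signals of the wild-type arrays are in neither mean of the Flt3L comparison. They enter it through the shared estimate of spread, the added constant, the filter and the choice of probe set. On the wild-type arrays, 73 genes were called higher in DEC205 DCs without overlap and by at least 8-fold (log2 of 3). Of these, 58 were highest on 33D1 array 3 among the 3 arrays of its group, against 8 on array 1 and 7 on array 2. Over the 70 of them whose DEC205 level in Flt3L mice was above 500 and more than 4-fold the mean of 33D1 arrays 1 and 2, the signal of array 3 exceeded that mean by a median of 3.33% of the gap to the DEC205 level (quartiles 1.13% and 5.52%). The same measure, each array against its other 2, was -1.79% for array 1 and -0.96% for array 2 over 69 genes. The DEC205 arrays showed no such split for 71 genes of the 33D1 side, with medians of 0.0579%, -0.0716% and -0.0669% over 66 genes. Irf8 shows it plainly: the 33D1 arrays read 341, 371 and 2407, and array 3 stood above its fellows but far below the DEC205 arrays at 21295, 27557 and 26186. Leaving array 3 out widened the largest differences toward DEC205, to -6.42 for Rab7b and -5.94 for Irf8, and it left the 30 leading genes of the comparison called.

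**Figure D1:**
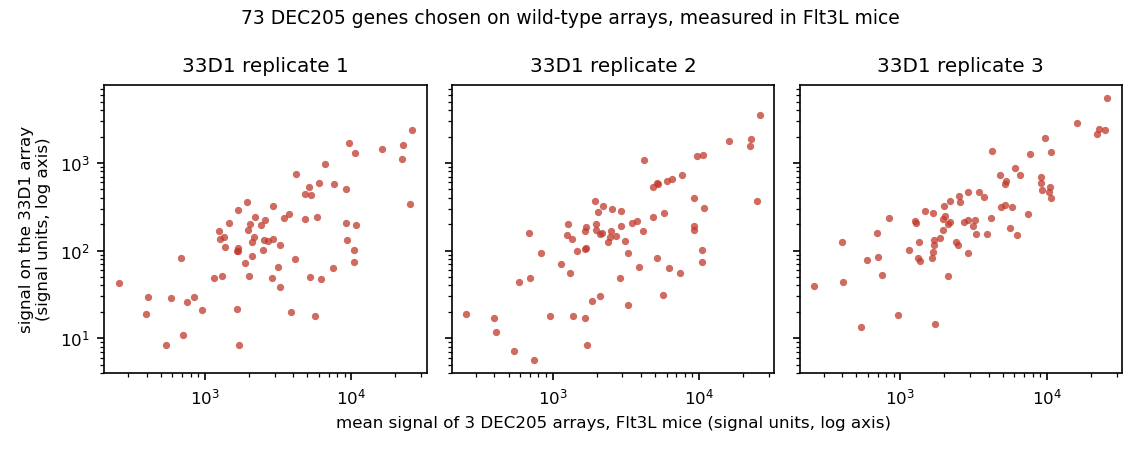
Signal of the 73 genes chosen on the wild-type arrays for DEC205 DCs, as their mean on the 3 DEC205 arrays of Flt3L mice (horizontal, log axis) against each 33D1 array (vertical, log axis), 1 panel per array and 1 point per gene. The points of array 3 lie higher than those of arrays 1 and 2, and 58 of the 73 genes were highest there.

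The subsets differed at many genes and in both directions. Of 13284 genes tested, 1530 were higher in 33D1 DCs (11.5%) and 1539 were lower (11.6%). The fold was at least 2 for 697 of the higher and 530 of the lower genes, and at least 8 for 91 and 58. The 3 arrays of one subset all lay above the 3 of the other for 1500 of the higher and 1512 of the lower calls. Such a gap was common over all genes, with 40.8% of the 13284 and 23.6% of the genes without a call, so the gaps given below for single genes describe their values and add no evidence to the call. The median difference over all genes was 0.04. Across genes, which are not independent replicates, log2 signals correlated with r of 0.968 to 0.969 among the 33D1 arrays, 0.964 to 0.975 among the DEC205 arrays and 0.878 to 0.901 between the subsets.

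The gene highest in 33D1 DCs by this measure was Cd7, an immunoglobulin superfamily receptor best known from T cells and NK cells, with signals of 8604, 7599 and 8975 on the 33D1 arrays and 36.5, 29.1 and 36.4 on the DEC205 arrays (6.67 ± 0.43, adjusted p = 1.3e-10). S100a4, a calcium-binding protein linked to cell motility, had 17460.4, 22329.7 and 21956 on the 33D1 arrays and 160.3, 260.2 and 226 on the DEC205 arrays (6.30 ± 0.63, adjusted p = 1.01e-07). Tgm2, tissue transglutaminase, had 12388, 13717 and 11997 on the 33D1 arrays and 143, 113 and 140.2 on the DEC205 arrays (6.14 ± 0.37, adjusted p = 4.64e-11). All 3 were bright in 33D1 DCs. In DEC205 DCs Cd7 was far below the array medians, and S100a4 and Tgm2 lay around or above them. Ltb, lymphotoxin beta, a membrane ligand of the TNF family, had 13163, 12615 and 13439 on the 33D1 arrays and 184, 102 and 222 on the DEC205 arrays (5.95 ± 0.21, adjusted p = 8.19e-14). Rtp4, a chaperone of receptor transport that interferon induces, had 5995, 7457 and 4213 on the 33D1 arrays and 64.2, 62.7 and 7.3 on the DEC205 arrays (6.02 ± 0.39, adjusted p = 1.35e-10). Both were brighter on every 33D1 array, and the third DEC205 array was the lowest for Rtp4. Ddr1, a collagen receptor tyrosine kinase, had 7440.2, 8826 and 7644 on the 33D1 arrays and 141, 42.4 and 77.3 on the DEC205 arrays (5.95 ± 0.28, adjusted p = 1.2e-12), and Ptgs2, the prostaglandin synthase also called COX-2, had 5593, 3570.2 and 6966 on the 33D1 arrays and 19.1, 36.8 and 274 on the DEC205 arrays (5.41 ± 0.70, adjusted p = 4.1e-06). Within the 33D1 group Ptgs2 was lowest on array 2. Sox4, a transcription factor of progenitor cells, had 2083, 3016 and 3139 on the 33D1 arrays and 46, 81.4 and 41.2 on the DEC205 arrays (4.73 ± 0.34, adjusted p = 6.57e-10). St8sia6, a sialyltransferase (4.80), Bex6 (5.03) and Ms4a4c, a membrane protein of the CD20 family (4.70), completed this end of the list with genes described further on.

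At the other end, Pdia5, a disulphide isomerase of the endoplasmic reticulum, had signals of 17.8, 30.8 and 182 on the 33D1 arrays and 5684, 5248 and 6014 on the DEC205 arrays (-5.74 ± 0.33, adjusted p = 2.48e-11). Rab7b, a small GTPase of late endosomes, had 74.6, 75 and 527 on the 33D1 arrays and 10196, 10968 and 10298 on the DEC205 arrays (-5.67 ± 0.45, adjusted p = 2.82e-09). Gcsam, an adaptor first known from germinal centre B cells, had 47, 63.4 and 151 on the 33D1 arrays and 6487, 6072 and 6204 on the DEC205 arrays (-5.61 ± 0.25, adjusted p = 6.81e-13). For each of these, array 3 was the highest of the 33D1 group and still far below every DEC205 array. Xcr1, the receptor for the chemokine Xcl1, had 101, 100.5 and 463 on the 33D1 arrays and 7334, 12961 and 10902 on the DEC205 arrays (-5.50 ± 0.43, adjusted p = 2.08e-09). P2ry14, a receptor for UDP-glucose, had 49.8, 81.8 and 334 on the 33D1 arrays and 5835, 4813 and 4923 on the DEC205 arrays (-4.94 ± 0.40, adjusted p = 3.94e-09). Tlr12, a sensor of profilin from parasites, had 8.3, 8.3 and 14.5 on the 33D1 arrays and 1505, 1778 and 1854 on the DEC205 arrays (-4.90 ± 0.27, adjusted p = 1.26e-11). Unlike most of this end, Tlr12 stayed at the bottom of the array in all 3 33D1 pools. Cadm1, an adhesion molecule, had 208, 188 and 598 on the 33D1 arrays and 11020.1, 8662 and 7843 on the DEC205 arrays (-4.75 ± 0.29, adjusted p = 7.27e-11), and Hk3, a hexokinase of myeloid cells, had 38.7, 24 and 153 on the 33D1 arrays and 3428, 3154 and 3222 on the DEC205 arrays (-4.93 ± 0.36, adjusted p = 7.9e-10). Plpp1, a lipid phosphatase (-5.07), Hepacam2 (-4.72) and Slco3a1, an organic anion transporter (-4.40), were the other members. Without array 3, Pdia5 was at -6.29, Xcr1 at -6.09 and P2ry14 at -5.53.

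**Figure D2:**
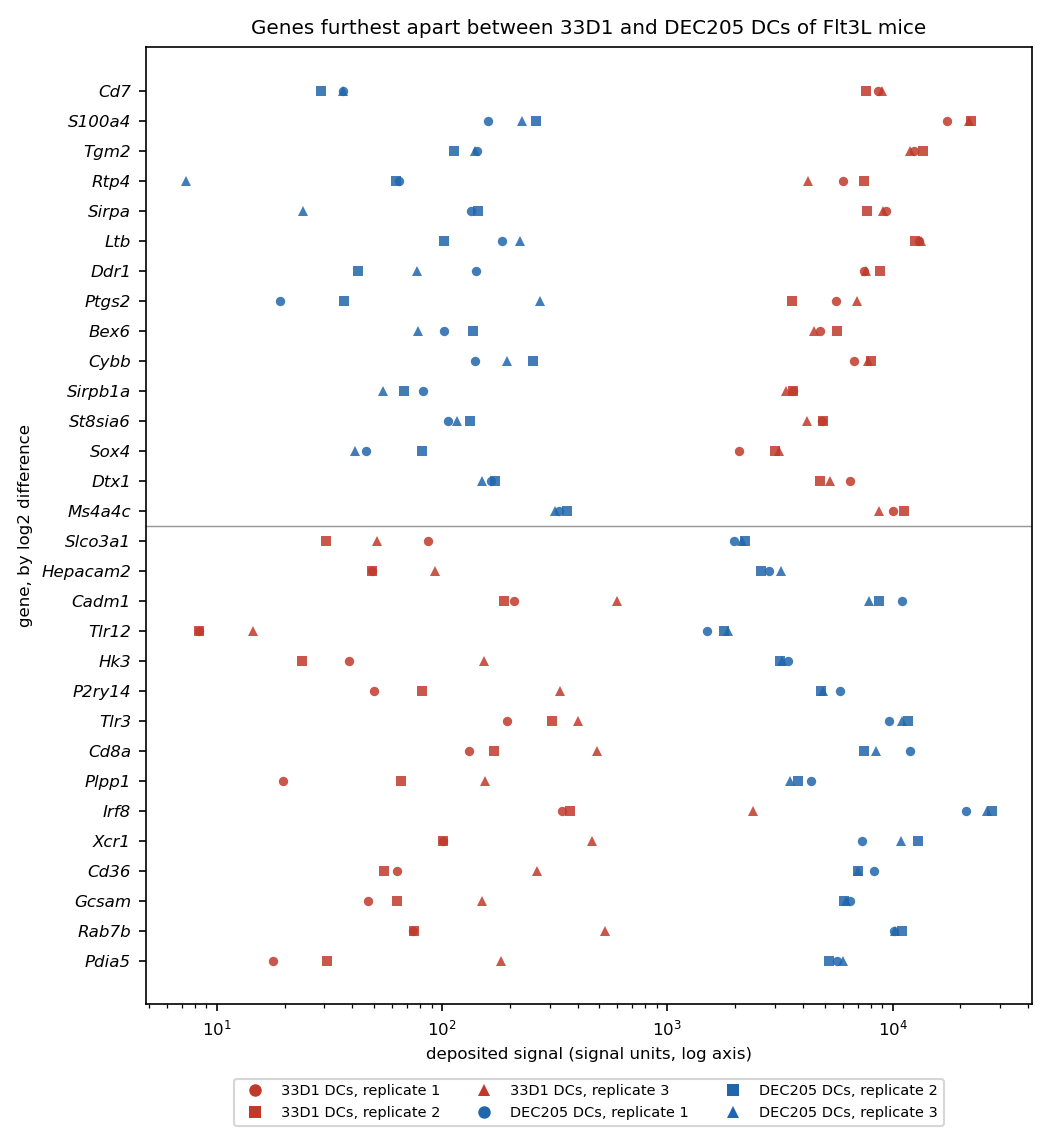
Signal on each of the 6 arrays (log axis) for the 15 genes highest and the 15 lowest in 33D1 DCs. Colour gives the subset and the marker shape the replicate number. The 2 subsets are apart for all 30 genes, and 33D1 array 3 is the nearest of its group to DEC205 for many genes of the DEC205 side.

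The marker lists of the 2 subsets separated as the labels name them. In the list for CD8-positive DCs, 16 of 18 tested genes were lower in the 33D1 subset and Wdfy4 and Id2 were not called, with a median difference of -3.84 over the 18. With the replicate block on the 6 arrays all 18 were lower, Wdfy4 at an adjusted p of 0.000952. Of 18 markers of CD8-negative DCs, all 18 were higher, with a median of 3.84. The same share over all genes was 11.6% lower and 11.5% higher. These lists and the markers were set with knowledge of such cells and of these data. Their counts therefore describe the values and are no separate evidence for the labels. Clec9a, another known marker of the CD8-positive subset, was not tested. Cd36, a scavenger receptor, had 63.3, 55.1 and 264 on the 33D1 arrays and 8251, 7050.3 and 7029 on the DEC205 arrays (-5.60 ± 0.34, adjusted p = 4.94e-11). Itgae, the CD103 integrin chain, had 102, 144 and 117 on the 33D1 arrays and 3213, 1988 and 2224 on the DEC205 arrays (-3.88 ± 0.27, adjusted p = 3.35e-10), and Cd24a, a heavily glycosylated surface antigen, had 1454, 1772 and 2844 on the 33D1 arrays and 14974, 17369 and 16058 on the DEC205 arrays (-3.02 ± 0.22, adjusted p = 8.72e-10). No array of one subset reached into the range of the other for these 3 genes. On the other side, Cd209a, a C-type lectin, had 3320.1, 4609 and 3607 on the 33D1 arrays and 143, 118 and 129 on the DEC205 arrays (4.43 ± 0.26, adjusted p = 4.21e-11). Itgam, the CD11b integrin chain, had 1720.3, 1743 and 1296 on the 33D1 arrays and 87.1, 35.1 and 98.4 on the DEC205 arrays (3.77 ± 0.26, adjusted p = 3.87e-10). Both were several-fold brighter on each 33D1 array than on any DEC205 array.

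Transcription factors of the DC lineage moved in both directions. Of 42 tested, 20 were higher in 33D1 DCs and 5 were lower (47.6% and 11.9%, against 11.5% and 11.6% of all genes). The median difference was 0.46. Irf4, on which the CD8-negative subset depends, had signals of 1394, 773 and 1142 on the 33D1 arrays and 18.6, 14.4 and 11.4 on the DEC205 arrays (4.15 ± 0.38, adjusted p = 2.65e-08). Irf8, on which the CD8-positive subset depends, was the most extreme factor on the DEC205 side (-5.08 ± 0.42, adjusted p = 6.34e-09). The 2 interferon regulatory factors thus lay at opposite ends of the list. Spib, an Ets family factor, had 3174, 2509.6 and 3063 on the 33D1 arrays and 99.5, 136 and 208 on the DEC205 arrays (3.95 ± 0.29, adjusted p = 9.34e-10). Stat4, which signals for IL-12 and interferon, had 985, 978 and 809.9 on the 33D1 arrays and 9.7, 12.8 and 12.1 on the DEC205 arrays (4.01 ± 0.15, adjusted p = 8.57e-14). Relb, a subunit of alternative NF-kB, had 5292, 5036 and 5145 on the 33D1 arrays and 720.5, 708 and 699 on the DEC205 arrays (2.78 ± 0.18, adjusted p = 1.02e-10). Relb varied little within either group, and the groups of Irf4, Spib and Stat4 were likewise apart. Rel (1.47) and Nfkb2 (1.10), other NF-kB subunits, and Klf4 (2.06), Bcl11a (1.76), Tcf4 (1.44), Zeb2 (1.26), Runx3 (1.18) and Ikzf1 (0.97) were also higher in 33D1 DCs. Nfkb2 and Runx3 each had 2 kept probe sets, of which 1 was called. Mycl, a Myc family factor that sustains DC growth, had 838, 742 and 1145 on the 33D1 arrays and 5437, 4655 and 4875 on the DEC205 arrays (-2.42 ± 0.15, adjusted p = 1.14e-10), and Myc (-0.99) and Irf5 (-0.84) were lower too.

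Batf3, the partner of Irf8 in the CD8-positive subset, differed far less than Irf8 did in size. Its signals were 2662, 2864 and 2831 on the 33D1 arrays and 4494, 4325 and 4811 on the DEC205 arrays (-0.70 ± 0.24, adjusted p = 0.0449), and although the groups did not overlap, leaving out any 1 of the 6 arrays ended the call, with adjusted p between 0.0768 and 0.121. A replicate block in the fit of 21 arrays ended it too (adjusted p = 0.0581), while the block on the 6 arrays kept it (0.000328). Id2, which restrains E proteins such as Tcf4, had 10133, 10589.8 and 9488 on the 33D1 arrays and 13254, 16527 and 15846 on the DEC205 arrays and was not called (-0.59 ± 0.23, adjusted p = 0.0699), and Zbtb46, a factor of conventional DCs, had 2948, 2268 and 2696 on the 33D1 arrays and 3556, 3969 and 3908 on the DEC205 arrays (-0.53 ± 0.24, adjusted p = 0.13). Both were called lower with equal replicate numbers as a block on the 6 arrays, at adjusted p of 0.00138 and 0.00635. In the same fit Cebpb (adjusted p = 0.00364), Nfil3 (0.0146) and Cbfb (0.0256) were called higher and Ahr (0.0196) lower, and the count of lower factors went from 5 to 8. Some of the smaller calls were lost when 1 array was left out. Stat3 had an adjusted p of 0.0639 without 33D1 array 3. Spi1, the factor PU.1, lost its call without 33D1 array 1 or 3 or DEC205 array 2 or 3 (0.147 to 0.157). Nr4a1 lost it without 33D1 array 1 or 3 or DEC205 array 1 or 2 (0.0542 to 0.119).

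Genes of the Notch pathway were split between the subsets. Notch receptors are cut by gamma-secretase after a ligand binds, and the freed part acts with Rbpj on target genes. Of 25 tested, 5 were higher in 33D1 DCs and 7 were lower (20% and 28%, against 11.5% and 11.6% of all genes). The median difference was 0.07. Dtx1, Deltex, a target and regulator of Notch, had signals of 6503, 4781 and 5272 on the 33D1 arrays and 165, 172 and 150.2 on the DEC205 arrays (4.71 ± 0.32, adjusted p = 3.35e-10). Jag1, a Notch ligand, had 886, 711 and 615 on the 33D1 arrays and 86, 42.4 and 80.7 on the DEC205 arrays (2.74 ± 0.24, adjusted p = 1.25e-08). Esam, an adhesion molecule that marks Notch-dependent DCs of the spleen, had 767, 776 and 606 on the 33D1 arrays and 318, 284 and 289 on the DEC205 arrays (1.14 ± 0.20, adjusted p = 0.000146). None of these 3 overlapped between the groups. Of the receptors, Notch4 was the one with the large difference, at 134, 192 and 224 on the 33D1 arrays and 3019, 3036 and 2678 on the DEC205 arrays (-3.69 ± 0.30, adjusted p = 4.9e-09). Notch1 was lower in 33D1 DCs by a smaller margin (-0.78 ± 0.19, adjusted p = 0.00462), and Notch2, the receptor that CD8-negative DCs need, was not called, with 5451, 6330.2 and 6344 on the 33D1 arrays and 5767, 7517 and 6877 on the DEC205 arrays (-0.15 ± 0.14, adjusted p = 0.549). Rbpj itself had 3201, 3028 and 3196 on the 33D1 arrays and 4572, 5188 and 5282 on the DEC205 arrays (-0.66 ± 0.11, adjusted p = 9.47e-05), and Numb, an inhibitor of Notch, had 579, 548 and 559 on the 33D1 arrays and 1514, 1259.8 and 1202 on the DEC205 arrays (-1.16 ± 0.12, adjusted p = 2.06e-07). Psen2, a catalytic subunit of gamma-secretase (-0.86), and Dtx4 (-0.89) were lower as well. Other targets were not called: Hes1 stood at 0.09, Hey1 at 0.21 and Nrarp at 0.27. Mfng lost its call without 33D1 array 3 (adjusted p = 0.073) or DEC205 array 2 (0.114), and Jag2 without 33D1 array 1 or 2 or DEC205 array 1 or 3 (0.0802 to 0.176). With the replicate block on the 6 arrays, Adam17 (adjusted p = 0.0335) was called higher, and Aph1a (0.00849) and Dtx3 (0.0358) lower.

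The ligands of the lymphotoxin beta receptor were on the 33D1 side. Lymphotoxin alpha and beta form a membrane trimer that, like Tnfsf14 (LIGHT), binds this receptor and turns on alternative NF-kB through Relb. Besides Ltb, Lta had signals of 191, 212 and 228 on the 33D1 arrays and 22.6, 25.9 and 21.3 on the DEC205 arrays (1.85 ± 0.24, adjusted p = 5.15e-06), and Tnfsf14 had 184, 185 and 185 on the 33D1 arrays and 19.7, 19.2 and 14.7 on the DEC205 arrays (1.81 ± 0.33, adjusted p = 0.000255). Both were dim in 33D1 DCs and at the bottom of the array in DEC205 DCs, with no overlap. The receptor gene Ltbr itself was not called, with 1178, 1200.2 and 1236 on the 33D1 arrays and 1141, 972 and 954 on the DEC205 arrays (0.23 ± 0.37, adjusted p = 0.748; named after its value was seen). Of 26 tested ligands, receptors and adaptors of the TNF family, 12 were higher in 33D1 DCs (46.2%, against 11.5% of all genes). The other 14 were not called, and the median was 0.67. Traf1, an adaptor that NF-kB induces, had 3339.7, 5032 and 4358 on the 33D1 arrays and 668, 1278 and 1446 on the DEC205 arrays (1.91 ± 0.24, adjusted p = 3.45e-06). Nfkbie (1.13), an inhibitor of NF-kB, Tnfrsf1b (1.07), a TNF receptor, and Traf2 (0.95) were higher too. Tnfrsf13c, the BAFF receptor, was called at 0.78 ± 0.25 (adjusted p = 0.0311) and lost the call without any 1 of the 3 33D1 arrays or without DEC205 array 1 or 3 (0.0544 to 0.133).

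Receptors for growth factors and cytokines leaned to the 33D1 side, with 12 of 22 tested higher, 2 lower and a median of 0.45. These shares were 54.5% and 9.09%, against 11.5% and 11.6% of all genes. Csf1r, the receptor for M-CSF, had signals of 6079, 8759 and 7551 on the 33D1 arrays and 614, 738 and 827 on the DEC205 arrays (3.27 ± 0.25, adjusted p = 1.32e-09). Il1r2, the decoy receptor for IL-1, had 1159, 568 and 1720.3 on the 33D1 arrays and 139, 96.5 and 339 on the DEC205 arrays (2.32 ± 0.45, adjusted p = 0.000529). Csf3r, the G-CSF receptor, had 309, 340.1 and 391 on the 33D1 arrays and 82.2, 32.4 and 49.7 on the DEC205 arrays (1.96 ± 0.32, adjusted p = 6.82e-05). These 3 did not overlap between the subsets, and Il1r2 was lowest on array 2 in both. Both chains of the IL-6 receptor were higher, Il6st at 1.86 ± 0.16 and Il6ra at 0.95 ± 0.18. Ifngr1, a chain of the interferon gamma receptor, was lower, with 7546, 5448 and 6722 on the 33D1 arrays and 12376, 10195 and 12741 on the DEC205 arrays (-0.84 ± 0.18, adjusted p = 0.00113). Flt3, the receptor of the ligand the mice received, was bright in both subsets and not called, with 6156, 7168 and 6716 on the 33D1 arrays and 7548, 8187 and 7959 on the DEC205 arrays (-0.24 ± 0.17, adjusted p = 0.352), a gene chosen here after its values were seen. When every array was centred on its median, 7 of the 22 receptors were higher in place of 12.

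Uptake receptors were found on both sides. Of 27 tested C-type lectins and uptake receptors, 10 were higher in 33D1 DCs and 6 were lower, with a median of 0.44. These shares were 37% and 22.2%, against 11.5% and 11.6% of all genes. The Dectin-2 cluster lectins were on the 33D1 side: Clec4a2 and Clec4a3, Dcir family receptors and close relatives of the 33D1 antigen, had differences of 3.90 ± 0.31 and 3.94 ± 0.23, and Clec4b1 had 2.80 ± 0.41. The signals of Clec4a3 were 1456, 2021 and 1581 on the 33D1 arrays and 75.3, 59.4 and 57.1 on the DEC205 arrays. Clec7a, Dectin-1, the receptor for fungal glucans, had 2817, 1919 and 2587 on the 33D1 arrays and 293, 121 and 246 on the DEC205 arrays (3.25 ± 0.34, adjusted p = 2.19e-07). Every 33D1 array exceeded every DEC205 array for these lectins. On the DEC205 side, beside Ly75 and Cd36, stood Cd207, Langerin, with 29.2, 94.6 and 238 on the 33D1 arrays and 1258, 492 and 765 on the DEC205 arrays (-2.50 ± 0.47, adjusted p = 0.000373), and Scarb1, a lipoprotein receptor, with 1356, 1475 and 1925 on the 33D1 arrays and 4193, 4105 and 3887 on the DEC205 arrays (-1.35 ± 0.18, adjusted p = 6.62e-06). Cd207 was highest on 33D1 array 3 among its group, yet no group overlapped. Havcr2, or Tim-3, a receptor for phosphatidylserine, was lower at -1.08 ± 0.18. Probe sets of such near-identical families, here the Clec4a and Clec4b lectins and the Sirp, Oas, Ifit and H2 genes, may bind each other's transcripts, which was not tested. Cd68 lost its call without any 1 of the 3 33D1 arrays or without DEC205 array 1 or 3 (adjusted p 0.0505 to 0.0752).

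The tested Sirp receptors were among the 15 genes highest in 33D1 DCs. Sirpa, the inhibitory receptor that binds CD47 and marks CD8-negative DCs, had signals of 9373, 7718 and 9083 on the 33D1 arrays and 135, 145 and 24.1 on the DEC205 arrays (6.00 ± 0.34, adjusted p = 2.22e-11), and Sirpb1a, an activating relative, had 3616, 3612 and 3352 on the 33D1 arrays and 82.7, 67.6 and 54.5 on the DEC205 arrays (4.94 ± 0.37, adjusted p = 1.19e-09). Their ligand Cd47 was not called (0.22 ± 0.12, adjusted p = 0.23). Among 9 tested Fc receptor genes, 2 were higher and 3 lower in 33D1 DCs. These shares of a short list were 22.2% and 33.3%, against 11.5% and 11.6% of all genes. Fcer1g, the gamma chain that passes on signals from activating Fc receptors and from several lectins, had 10413, 12269.5 and 10942 on the 33D1 arrays and 730.2, 908 and 729.8 on the DEC205 arrays (3.75 ± 0.30, adjusted p = 3.79e-09). Fcer2a, the low-affinity IgE receptor, had 502, 747 and 480 on the 33D1 arrays and 92.8, 58.9 and 79.2 on the DEC205 arrays (2.30 ± 0.30, adjusted p = 4.02e-06). Fcgrt, the neonatal Fc receptor that rescues IgG from the lysosome, had 1111, 1170.4 and 1883 on the 33D1 arrays and 5424, 5169 and 4426 on the DEC205 arrays (-1.85 ± 0.21, adjusted p = 7.7e-07), and Fcgr2b, the inhibitory IgG receptor, had 1258, 2977 and 2589.7 on the 33D1 arrays and 3939, 4595 and 4169 on the DEC205 arrays (-0.97 ± 0.23, adjusted p = 0.004). The 2 subsets did not overlap for these genes, although Fcgr2b on 33D1 array 1 was well below arrays 2 and 3. Fcrla, an intracellular relative of B cells, was lower at -2.66 ± 0.25. Fcgr4 was not called, and the replicate block on the 6 arrays called it higher (adjusted p = 0.0281).

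Sensors of microbes were found on both sides. Of 30 tested Toll-like receptors (TLRs), nucleic acid sensors and their adaptors, 9 were higher in 33D1 DCs and 4 were lower, with a median of 0.30. The higher share was 30%, against 11.5% of all genes, and the lower share of 13.3% was near their 11.6%. Tlr3, the receptor for double-stranded RNA, had signals of 195, 307 and 401 on the 33D1 arrays and 9601, 11661 and 10962 on the DEC205 arrays (-4.99 ± 0.27, adjusted p = 9.15e-12), and Tlr12 was lower as above. Tlr7, the receptor for single-stranded RNA, had 956, 586 and 559 on the 33D1 arrays and 8.9, 8.1 and 77.9 on the DEC205 arrays (3.29 ± 0.37, adjusted p = 6.55e-07). Tlr1, which pairs with Tlr2 on bacterial lipoproteins, had 3962, 3801 and 2915 on the 33D1 arrays and 149, 145 and 44 on the DEC205 arrays (4.55 ± 0.24, adjusted p = 9.42e-12). The groups were apart for all 3, and DEC205 array 3 was the highest of its group for Tlr7 and the lowest for Tlr1. The cytosolic RNA sensors Ddx58, or RIG-I, with 2644, 2303 and 1988 on the 33D1 arrays and 297, 413 and 320.5 on the DEC205 arrays (2.59 ± 0.14, adjusted p = 1.11e-11), and Ifih1, or MDA5 (1.49 ± 0.23), were both higher in 33D1 DCs. Nod1, a sensor of bacterial cell wall, had 3793, 2822 and 3709 on the 33D1 arrays and 1169.8, 547 and 948 on the DEC205 arrays (1.95 ± 0.21, adjusted p = 3.52e-07), and Casp1, the protease of the inflammasome, was higher at 1.81 ± 0.32. Tlr9 (0.18), Tlr2 (0.35), Tlr4 (-0.46) and Tlr13 (0.04), named after their values were seen, were not called, although Tlr2 was called higher with the replicate block on the 6 arrays (adjusted p = 0.0486). The count of lower genes was 2 in place of 4 without 33D1 array 2, without DEC205 array 1 or without DEC205 array 3.

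Interferon response genes were mostly higher in 33D1 DCs. Type I interferon acts through the factor ISGF3, which binds the interferon-stimulated response element (ISRE) in the promoters of genes that block virus replication. Of 34 tested members of the list, 21 were higher in 33D1 DCs (61.8%, against 11.5% of all genes). Trim30a was lower (2.94%, against 11.6%), and the median was 0.85. The promoters of 4 genes called higher and of Trim30a are printed here because the ISRE core is in them. Of the list, 27 genes were found in the RefSeq promoter table (GRCm38.p6), which gives 250 bases before and 50 after each gene start. The letters GAAA, any 2 bases and GAAA again, which read TTTC, any 2 bases and TTTC on the other strand, were searched on both strands of all windows, counting overlapping matches. They stood in 15 of the 27 genes (55.6%), a gene counting if any of its windows held a match, against 3.71% of the 10701 tested genes. Counted by window, the share was 3.44% of all 32851 windows. By call, 10 of 17 higher genes of the list held them (58.8%) and 4 of 9 genes without a call (44.4%). Over all genes the share was 6.35% of 1213 called higher and 3.68% of 1249 called lower. A match is a description of the letters and no binding site. The 160 bases before the start are printed 5′ to 3′ along the gene's strand, with the matches in capitals: Ifit3 at chr19:34583369-34583528 on the plus strand, with matches that begin 156 and 122 bases before the start, Ifit1 at chr19:34640729-34640888 on the plus strand (104 and 85), Oas1a at chr5:120907526-120907685 on the minus strand (20 and 14, overlapping), Rsad2 at chr12:26456453-26456612 on the minus strand (120), and Trim30a, the gene called lower, at chr7:104465194-104465353 on the minus strand (36).
Ifit3: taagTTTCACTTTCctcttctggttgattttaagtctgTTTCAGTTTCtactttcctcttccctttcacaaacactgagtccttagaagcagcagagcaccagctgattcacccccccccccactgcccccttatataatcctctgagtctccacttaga
Ifit1: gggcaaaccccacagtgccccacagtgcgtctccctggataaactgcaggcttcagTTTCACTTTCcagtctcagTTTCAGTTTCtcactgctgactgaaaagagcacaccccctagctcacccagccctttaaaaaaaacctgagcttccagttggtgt
Oas1a: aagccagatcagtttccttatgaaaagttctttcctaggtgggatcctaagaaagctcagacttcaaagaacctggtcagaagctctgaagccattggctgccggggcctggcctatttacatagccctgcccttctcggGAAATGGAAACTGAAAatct
Rsad2: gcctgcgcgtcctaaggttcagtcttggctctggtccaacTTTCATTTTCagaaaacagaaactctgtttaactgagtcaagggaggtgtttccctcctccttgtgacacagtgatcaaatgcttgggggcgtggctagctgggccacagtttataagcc
Trim30a: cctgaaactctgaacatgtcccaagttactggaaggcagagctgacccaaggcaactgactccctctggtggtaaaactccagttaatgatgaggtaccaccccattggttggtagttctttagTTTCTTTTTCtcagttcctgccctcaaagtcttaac

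In these genes the subsets were apart and the third array of both was often the lowest. Oas2, a sensor of double-stranded RNA that activates RNase L, had signals of 2182, 3191 and 2179 on the 33D1 arrays and 75.3, 109 and 192 on the DEC205 arrays (3.92 ± 0.30, adjusted p = 1.66e-09). Oasl2, a relative, had 3534, 3729 and 2263 on the 33D1 arrays and 183, 250.4 and 114 on the DEC205 arrays (3.81 ± 0.36, adjusted p = 3.81e-08). Ifit3 and Ifit1, which block translation of viral RNA, had differences of 2.96 ± 0.24, adjusted p = 4.16e-09 and 2.96 ± 0.28, adjusted p = 4.57e-08. Ifit1 read 1495, 1102 and 973 against 125, 161 and 57.8, and array 3 was the lowest of both groups. Oas1a had 4998, 6198 and 5540.4 on the 33D1 arrays and 1392, 1681 and 965 on the DEC205 arrays (2.04 ± 0.19, adjusted p = 4.42e-08), and Rsad2, viperin, had 2575, 2787 and 1685 on the 33D1 arrays and 649.8, 567 and 438 on the DEC205 arrays (1.98 ± 0.26, adjusted p = 5.71e-06). Each of them was brighter on every 33D1 array than on any DEC205 array. Trim30a, an inhibitor of inflammatory signalling, had 5119.7, 5322 and 4626 on the 33D1 arrays and 7952, 8813 and 7568 on the DEC205 arrays (-0.69 ± 0.15, adjusted p = 0.0019). The regulators of the pathway were not called, with Irf7 at 0.00 ± 0.23, Stat2 at 0.26 ± 0.15 and Irf9 at 0.04 ± 0.13, the last named after its value was seen, as were Mx1 (-0.46 ± 0.20) and Bst2 (-0.07 ± 0.23). With the replicate block on the 6 arrays Mx1 was called lower (-0.46 ± 0.12, adjusted p = 0.017), and the number of lower genes was 3 in place of 1. It was 2 without DEC205 array 1, with median centring and with array weights.

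Chemokine receptors differed in both directions. Of 21 tested, 6 were higher in 33D1 DCs and 4 were lower (28.6% and 19%, against 11.5% and 11.6% of all genes). The median was 0.44. Ccr6, the receptor for Ccl20, had signals of 2189.5, 2915 and 2239.6 on the 33D1 arrays and 157, 116 and 83.9 on the DEC205 arrays (3.91 ± 0.32, adjusted p = 4.42e-09). Gpr183, or EBI2, an oxysterol receptor that places CD8-negative DCs at the bridging channels of the spleen, had 3039, 2375 and 2666 on the 33D1 arrays and 399.9, 256 and 403 on the DEC205 arrays (2.79 ± 0.39, adjusted p = 9.51e-06). Cxcr3, the receptor for Cxcl9 and Cxcl10, had 533, 586 and 578 on the 33D1 arrays and 5248, 5763 and 4496 on the DEC205 arrays (-3.08 ± 0.30, adjusted p = 5.62e-08). No array of one group reached the other for these. Ccr9, the gut-homing receptor, had 207, 99.7 and 283 on the 33D1 arrays and 1886, 1036 and 1491 on the DEC205 arrays (-2.67 ± 0.26, adjusted p = 8.87e-08), and Ptger3, a prostaglandin E2 receptor, was higher at 3.78 ± 0.29. Ccr2 was spread within both groups, at 206, 467 and 644 against 868, 2429 and 1305 (-1.69 ± 0.45, adjusted p = 0.0087), and its call was lost without 33D1 array 1 (-1.28, adjusted p = 0.0691) or DEC205 array 2 (-1.31, 0.0663). Ccr7, which leads mature DCs to T cell areas, was not called (0.75 ± 0.33, adjusted p = 0.123; named after its value was seen), and it was called higher with the replicate block on the 6 arrays (0.00353).

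The chemokines themselves differed between the subsets. Of 19 tested, 5 were higher and 3 lower in 33D1 DCs, with a median of 0.15. The higher share was 26.3%, against 11.5% of all genes, and the lower share of 15.8% was near their 11.6%. Ccl5, which draws T cells, had signals of 11374, 14881 and 14486 on the 33D1 arrays and 966, 884 and 901 on the DEC205 arrays (3.81 ± 0.41, adjusted p = 3.43e-07). Ccl3, an inflammatory chemokine, had 1826, 1296 and 1646 on the 33D1 arrays and 116, 104 and 202 on the DEC205 arrays (3.14 ± 0.52, adjusted p = 8.44e-05), and Ccl9 had 1192, 1873 and 1796 on the 33D1 arrays and 92.3, 122 and 116 on the DEC205 arrays (3.37 ± 0.30, adjusted p = 1.84e-08). Cxcl9, the interferon gamma-induced ligand of Cxcr3, had 242, 271 and 312 on the 33D1 arrays and 6013, 5156 and 6204 on the DEC205 arrays (-4.18 ± 0.19, adjusted p = 5.88e-13). Cxcl9 and its receptor Cxcr3 were therefore both on the DEC205 side, while Ccl3, Ccl5 and Ccl9 were on the 33D1 side, all without overlap. Cxcl16 (-1.79) and Ccl22 (-1.96) were lower too. Ccl4 lost its call without 33D1 array 1 or 3 or DEC205 array 2 (adjusted p 0.0986 to 0.216), and Ccl6 without 33D1 array 2 or 3 or DEC205 array 2 or 3 (0.0559 to 0.101). The count of higher chemokines was 3 in place of 5 without 33D1 array 3, without DEC205 array 2, and with arrays centred on the median.

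Costimulatory genes were found on both sides, 12 of 29 tested higher in 33D1 DCs and 5 lower, with a median of 0.42. These shares were 41.4% and 17.2%, against 11.5% and 11.6% of all genes. Cd274 and Pdcd1lg2, the ligands PD-L1 and PD-L2 that restrain T cells through PD-1, had differences of 2.77 ± 0.26, adjusted p = 3.51e-08 and 1.85 ± 0.27, adjusted p = 2.32e-05. Cd274 read 2369.5, 1398 and 1839.9 on the 33D1 arrays and 123, 228 and 389.5 on the DEC205 arrays. Icosl, the ligand of the costimulator ICOS, had 6917, 6438 and 9396 on the 33D1 arrays and 1633, 2049 and 2372 on the DEC205 arrays (1.88 ± 0.21, adjusted p = 5.39e-07). All 3 were higher on every 33D1 array. Cd86, the ligand of CD28, had 1020.3, 1083 and 998 on the 33D1 arrays and 4886, 4940.5 and 5315 on the DEC205 arrays (-2.23 ± 0.23, adjusted p = 1.38e-07), while Cd80, its partner, was not called (0.77 ± 0.36, adjusted p = 0.15), and neither was Cd40 (0.42 ± 0.24) or Cd83 (0.39 ± 0.33), all 3 named after their values were seen. With the replicate block on the 6 arrays all 3 were called higher (adjusted p of 0.00248, 0.0175 and 0.039). Cd1d1, which shows lipids to NKT cells, had 887, 839.5 and 1141 on the 33D1 arrays and 4703, 3377 and 5871 on the DEC205 arrays (-2.20 ± 0.16, adjusted p = 1.04e-09), and Btla, an inhibitory receptor, had 3499, 3793 and 3932 on the 33D1 arrays and 14595, 15382 and 13823 on the DEC205 arrays (-1.95 ± 0.12, adjusted p = 1.09e-10). These 2 and Cd86 were higher on every DEC205 array.

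Of 17 tested cytokine genes of DCs, 1 was higher (5.88%) and 2 were lower (11.8%) in 33D1 DCs, shares below or near the 11.5% and 11.6% of all genes. Il15, which sustains CD8 T cells and NK cells, had signals of 224, 188 and 192 on the 33D1 arrays and 1499, 1098 and 1092 on the DEC205 arrays (-2.34 ± 0.20, adjusted p = 8.05e-09), and Il12b, the shared chain of IL-12 and IL-23, had 168, 204 and 199 on the 33D1 arrays and 562, 868 and 2053 on the DEC205 arrays (-2.15 ± 0.32, adjusted p = 2.8e-05). Both were higher on every DEC205 array, and Il12b was highest on DEC205 array 3. Il1b had 7066, 3883 and 6890.3 on the 33D1 arrays and 3196, 712 and 5229.8 on the DEC205 arrays (1.30 ± 0.46, adjusted p = 0.0499). Its groups overlapped, array 2 was the lowest of both, and the call was lost without 33D1 array 1 or 3 or DEC205 array 2 (adjusted p 0.151 to 0.383, difference 0.49 without DEC205 array 2). The number of higher cytokines, 1, was 0 by limma without 33D1 array 1 or 3 or with arrays centred on the median, 2 without DEC205 array 3 and 3 with the replicate block on the 6 arrays. In the fit of all 21 arrays, 7 of the 17 had an unadjusted p under 0.05.

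The presentation machinery differed while the presenting molecules themselves were not called. For MHC class I, 14 of 21 tested genes were lower in 33D1 DCs (66.7%, against 11.6% of all genes). Only 1 was higher (4.76%, against 11.5%), and the median was -0.53. The higher one was Cybb, a subunit of the NADPH oxidase that slows antigen breakdown in phagosomes. Tap2, a chain of the peptide pump into the endoplasmic reticulum, had signals of 1642, 1408 and 1548 on the 33D1 arrays and 4359, 4033 and 3914 on the DEC205 arrays (-1.39 ± 0.12, adjusted p = 8.66e-09), and Tap1 was lower at -0.64 ± 0.09. Rab43, a GTPase needed for cross-presentation, had 4458, 4046 and 4160.2 on the 33D1 arrays and 11898, 12037 and 12188 on the DEC205 arrays (-1.50 ± 0.15, adjusted p = 1.16e-07). Psmb9, an immunoproteasome subunit, had 9038, 8064 and 8370.5 on the 33D1 arrays and 18439, 15146 and 15894 on the DEC205 arrays (-0.95 ± 0.14, adjusted p = 1.67e-05). The 3 arrays of DEC205 DCs were above those of 33D1 DCs for each. H2-K1 (0.11), H2-D1 (0.19) and B2m (0.12), the class I chains, were not called. The smallest calls were lost when 1 array was left out. Tapbp had an adjusted p of 0.112 without 33D1 array 2 and 0.066 without DEC205 array 2. Sec61b lost its call without 33D1 array 1 or 3 or DEC205 array 1 or 3 (0.113 to 0.145). The replicate block of the 21 arrays ended that call too (0.0538), and the block on the 6 arrays kept it (0.0201). Calr lost its call without 33D1 array 1 or 3 or any DEC205 array (0.0582 to 0.107).

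For MHC class II, 11 of 23 tested genes were higher in 33D1 DCs and 3 were lower, with a median of 0.59. The higher share was 47.8%, against 11.5% of all genes, and the lower share of 13% was near their 11.6%. H2-DMb2, a chain of the H2-DM editor that loads peptide, had signals of 14939, 15135 and 15655 on the 33D1 arrays and 3073, 3540.1 and 4205 on the DEC205 arrays (2.08 ± 0.29, adjusted p = 1.22e-05). H2-Oa, a chain of the H2-O inhibitor of that editor, had 13368, 14796 and 13029 on the 33D1 arrays and 7453, 5016 and 6212 on the DEC205 arrays (1.15 ± 0.14, adjusted p = 2.46e-06), and H2-Ob was higher at 0.59 ± 0.11. The proteases Lgmn, with 2216, 1516 and 1788 on the 33D1 arrays and 571, 547 and 657 on the DEC205 arrays (1.55 ± 0.17, adjusted p = 3.43e-07), and Ctsd, cathepsin D, with 1556, 1488 and 1418 on the 33D1 arrays and 554, 463 and 448 on the DEC205 arrays (1.52 ± 0.13, adjusted p = 1.51e-08), were higher as well, and the groups of all 4 genes given with signals were apart. Cst3, cystatin C, an inhibitor of cathepsins, was lower at -0.73 ± 0.15. The class II chains H2-Ab1 (-0.04), H2-Aa (0.04) and Cd74 (0.02), the invariant chain, and their regulator Ciita (0.21) were not called. Ctsz had an adjusted p of 0.0536 without 33D1 array 3. Ctsl was called higher without DEC205 array 1, and both Ctsl and Ctss were under the replicate block of the 6 arrays (0.0205 and 0.0355).

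Lysosomal genes went both ways, with 7 of 27 higher, 11 lower and a median of -0.15. These shares were 25.9% and 40.7%, against 11.5% and 11.6% of all genes. Ppt1, a thioesterase that removes palmitate from proteins, had signals of 1609.9, 1896 and 2424 on the 33D1 arrays and 18552, 25878 and 23751 on the DEC205 arrays (-3.50 ± 0.15, adjusted p = 3.15e-13), and Gusb, beta-glucuronidase, had 1289.9, 1236 and 1324 on the 33D1 arrays and 11824, 9274 and 10857 on the DEC205 arrays (-3.00 ± 0.12, adjusted p = 2.29e-13). Acp5, an acid phosphatase, had 3305, 4053 and 2979 on the 33D1 arrays and 617, 407 and 371 on the DEC205 arrays (2.79 ± 0.17, adjusted p = 6.06e-11). The groups were apart for all 3. With arrays centred on the median 4 were higher in place of 7. In the endoplasmic reticulum the calls of the unblocked fit had 1 direction. Of 28 folding and stress genes, 19 were lower in 33D1 DCs (67.9%, against 11.6% of all genes). The other 9 were not called, and the median was -0.69. P4hb, the main disulphide isomerase, had 5146, 4905 and 4934 on the 33D1 arrays and 10771, 10064 and 10484 on the DEC205 arrays (-1.06 ± 0.11, adjusted p = 2.64e-07), and Pdia6, a relative, had 2618, 2439 and 2549 on the 33D1 arrays and 5334, 5977 and 5919.5 on the DEC205 arrays (-1.16 ± 0.10, adjusted p = 4.65e-09). Neither overlapped between the subsets, and both differed far less than Pdia5. With the replicate block on the 6 arrays 23 were lower and 1 was higher, Ddit3, the stress factor CHOP, named for that call (0.56 ± 0.17, adjusted p = 0.0343). Txndc11 read 41.9, 32.3 and 34.9 against 89.8, 83.4 and 382, and its call was lost without DEC205 array 3 (-0.67, adjusted p = 0.0655).

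The oxidase that makes superoxide in phagosomes differed at some of its members. Cybb, gp91phox, had signals of 6765, 8047 and 7759 on the 33D1 arrays and 139.6, 253 and 194 on the DEC205 arrays (4.98 ± 0.30, adjusted p = 6.23e-11). Hvcn1, the proton channel that balances the charge the oxidase moves, had 1192, 1113 and 1158 on the 33D1 arrays and 21.8, 15.2 and 22.5 on the DEC205 arrays (4.14 ± 0.27, adjusted p = 1.57e-10), and Rac2, its small GTPase, had 11304, 12521 and 11169 on the 33D1 arrays and 6112, 5181 and 5567 on the DEC205 arrays (1.05 ± 0.10, adjusted p = 9.32e-08). All 3 were higher on each 33D1 array. The cytosolic subunits Ncf1 (0.16 ± 0.18) and Ncf4 (-0.23 ± 0.11) were not called. In all, 4 of 9 tested genes were higher and 1 was lower (44.4% and 11.1%, against 11.5% and 11.6% of all genes). Cyba lost its call without 33D1 array 2 or 3 or any DEC205 array (adjusted p 0.0524 to 0.129) and under the replicate block of 21 arrays (0.0521). The block on the 6 arrays kept it (0.0122). Vav1, the lower one, lost it without 33D1 array 2 or 3 or any DEC205 array (0.0545 to 0.108) and with median centring (0.127).

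Adhesion molecules differed between the subsets, with 8 of 33 tested higher in 33D1 DCs, 11 lower and a median of -0.02. These shares were 24.2% and 33.3%, against 11.5% and 11.6% of all genes. Beside Itgam on the 33D1 side and Itgae and Cadm1 on the DEC205 side, Cadm3, a relative of Cadm1, had signals of 1008, 1027 and 1336 on the 33D1 arrays and 35.6, 42.5 and 43.9 on the DEC205 arrays (3.71 ± 0.44, adjusted p = 1.15e-06). The relatives Cadm1 and Cadm3 thus stood on opposite sides. Itgb3, the integrin beta 3 chain, had 599, 769.9 and 664 on the 33D1 arrays and 108, 100.5 and 80.6 on the DEC205 arrays (2.32 ± 0.34, adjusted p = 1.95e-05). Itga6, the laminin receptor chain, had 174, 137 and 201 on the 33D1 arrays and 926, 1045 and 1108 on the DEC205 arrays (-2.30 ± 0.16, adjusted p = 5.95e-10), and Cd81, a tetraspanin, had 632, 757 and 839.6 on the 33D1 arrays and 8774, 6462 and 8216 on the DEC205 arrays (-3.31 ± 0.17, adjusted p = 5.84e-12). Each of these 4 was apart between the groups.

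**Figure D3:**
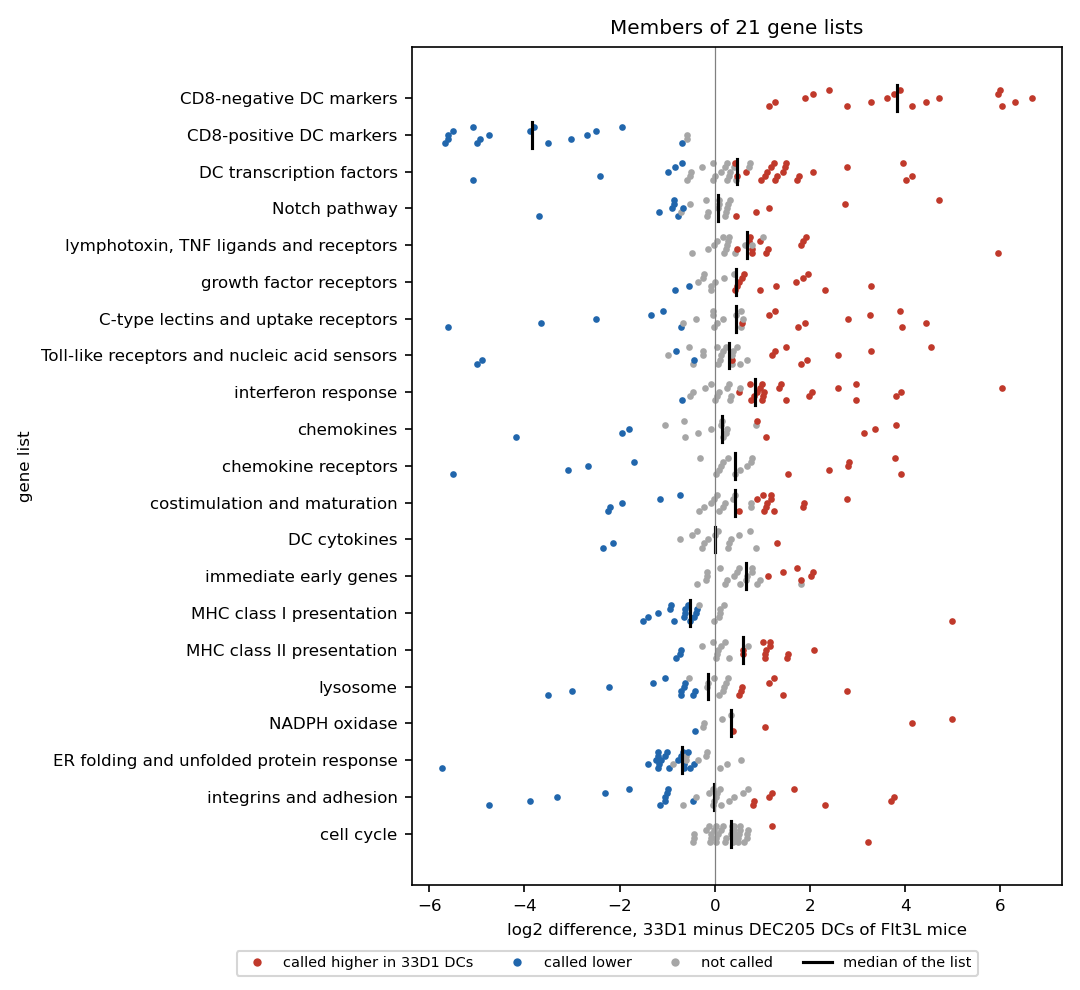
Difference between 33D1 and DEC205 DCs (log2, horizontal) of each tested member of the gene lists, 1 row per list. Red points were called higher, blue lower and grey not called, and the black bar is the median of the list. The marker rows separate fully, the rows of folding in the endoplasmic reticulum and MHC class I lie mostly left of 0, and the interferon row lies mostly right of it.

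Genes of the immediate early response, which rise within minutes of a stimulus to a cell, followed the replicate number in both subsets. All 24 tested were lowest on array 2 among the 33D1 arrays, and 22 of the 24 were lowest on array 2 in both subsets (91.7%, against 13.7% of all genes). Their median deviation from the mean of the 3 arrays was 0.31, -0.46 and 0.18 (log2) on 33D1 arrays 1 to 3 and 0.15, -0.52 and 0.40 on DEC205 arrays 1 to 3. Interferon genes showed a like pattern at another number: 21 of 34 were lowest on array 3 in both subsets (61.8%, against 12.2% of all genes). The labels do not say what the numbers stand for, and its part in the subset differences was not tested beyond the fits with a block. Egr1, a zinc finger factor of this response, had signals of 8375, 4870.3 and 7444 on the 33D1 arrays and 1789, 1018 and 2339 on the DEC205 arrays (2.02 ± 0.39, adjusted p = 0.00051). Egr2, a relative, had 1588, 657 and 1167 on the 33D1 arrays and 221, 176 and 488 on the DEC205 arrays (1.81 ± 0.37, adjusted p = 0.000802). Array 2 was low in both subsets, and the subsets still did not overlap. Jun, a subunit of AP-1 that was chosen after its values were seen, had 12468, 7945 and 12056 on the 33D1 arrays and 3885, 1742 and 3937 on the DEC205 arrays and a difference of 1.81, which missed the threshold (adjusted p = 0.0775). Within numbers 1, 2 and 3 its difference was 1.67, 2.16 and 1.60, and with the block on the 6 arrays it was 1.81 ± 0.12 (adjusted p = 3.22e-06).

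Of the 24 genes, 6 were higher in 33D1 DCs in the unblocked fit, with a median of 0.66, and 16 with the replicate block on the 6 arrays (25% and 66.7%, against 11.5% and 15.3% of all genes). The count was 3 without 33D1 array 1, without 33D1 array 3, without DEC205 array 2 and with median centring. Nr4a1 (1.74), Zfp36 (1.42) and Ier2 (1.12) were the calls that went. For Zfp36 it was 33D1 array 1 or 3 or DEC205 array 1 or 2 (adjusted p 0.0516 to 0.0991), and for Ier2 33D1 array 1 or 3 or DEC205 array 2 or 3 (0.0846 to 0.17). Nr4a1 is given with the transcription factors. Among 36 cell cycle genes, 2 were higher in the unblocked fit (5.56%, against 11.5% of all genes), Ccnd2, cyclin D2, with 3247, 5627 and 3626 on the 33D1 arrays and 304, 445 and 432 on the DEC205 arrays (3.23 ± 0.18, adjusted p = 1.27e-11), and Ccnd1, cyclin D1, with 15497, 17256 and 17731 on the 33D1 arrays and 8065, 6833 and 6915 on the DEC205 arrays (1.21 ± 0.15, adjusted p = 3.57e-06). Both stood apart between the groups. The median of the 36 was 0.35. With the block on the 6 arrays 17 were higher and 2 lower (47.2% and 5.56%, against 15.3% and 14.8% of all genes), with the 6 arrays alone and no block 10 were higher, and with quantile normalization 4 were.

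**Figure D4:**
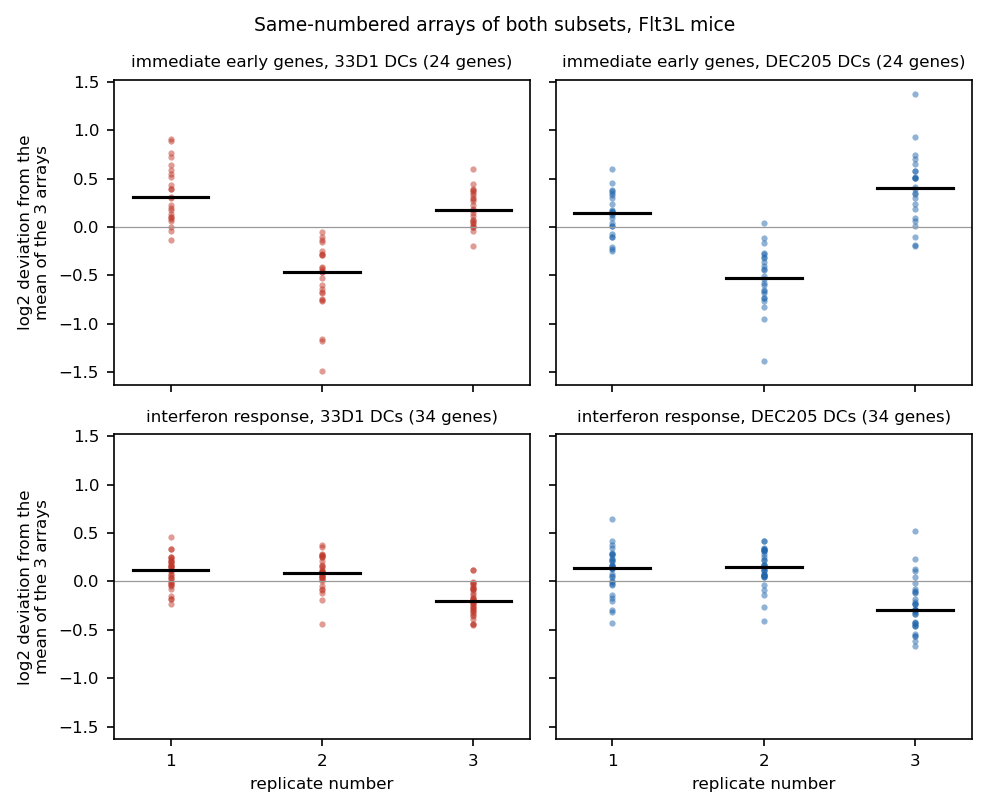
Deviation of each gene from the mean of the 3 arrays of its subset (log2, vertical) by replicate number (horizontal), for 24 immediate early genes and 34 interferon genes, in 33D1 and DEC205 DCs of Flt3L mice. Bars are medians. Replicate 2 is low for the immediate early genes and replicate 3 for the interferon genes, in both subsets.

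Markers of other spleen cells were counted on the same arrays, and some moved with the subset. Over all genes 11.5% were higher and 11.6% lower. The higher shares were 30.8% (B cell), 38.5% (NK cell), 15.4% (T cell), 33.3% (plasmacytoid DC), 23.1% (macrophage), 22.2% (neutrophil) and 22.2% (erythroid and platelet). The lower shares were 7.69% (B cell), 7.69% (NK cell), 8.33% (plasmacytoid DC) and 23.1% (macrophage). In the B cell list 4 of 13 genes were higher and 1 lower, with summed signals of 10460 to 11380 on the 33D1 arrays and 2768 to 3537 on the DEC205 arrays. Cd79b (2.92, adjusted p = 2.24e-08 by limma), Fcer2a (2.30) and Bank1 (1.05) were higher beside Cd22, and Fcrla (-2.66) was the lower one. Cd22, a sialic acid receptor, had 6061, 6870.2 and 6254 on the 33D1 arrays and 397, 388 and 513 on the DEC205 arrays (3.75 ± 0.28, adjusted p = 1.08e-09), while the defining Cd79a (22.3, 77.5 and 109.9 against 109, 64.1 and 61.8) and Pax5 (133, 29.7 and 199 against 125, 39 and 120.4) were dim and not called. Of 13 NK cell and cytotoxic markers, 5 were higher and 1 lower (25420 to 31080 against 5563 to 6926). Klrd1, the CD94 receptor chain, had 9948, 12218 and 10081 on the 33D1 arrays and 626, 1065 and 636 on the DEC205 arrays (3.75 ± 0.21, adjusted p = 1.69e-11), and Tbx21, the factor T-bet, had 1615, 887 and 1329.5 on the 33D1 arrays and 59.3, 20.6 and 51 on the DEC205 arrays (3.83 ± 0.45, adjusted p = 1.16e-06), while Eomes (40.4, 84.2 and 100 against 79.3, 66.5 and 106) and Nkg7 (20.2, 22.6 and 163 against 146, 74.1 and 79.6) were dim and not called. Cd22, Klrd1 and Tbx21 were higher on every 33D1 array. Of 13 T cell markers, 2 were higher, Il7r and Cd5 (1862 to 1984 against 999.4 to 1051), and Cd3e (42.3, 47.7 and 90.1 against 33.6, 88.1 and 27.8) and Cd3d (25.4, 24.9 and 19.9 against 10.1, 13.9 and 10.8) were below the median of every array. In the plasmacytoid DC list 4 of 12 genes were higher and 1 lower (8034 to 9798 against 4517 to 5459), Spib among them. Of 13 macrophage and monocyte markers, 3 were higher and 3 lower (17800 to 21040 against 14180 to 15620). The higher ones were Adgre1 (3.61, adjusted p = 5.09e-10 by limma), Csf1r (3.27) and Cd68 (0.57). Lyz2, lysozyme, had 908, 1038 and 1433 on the 33D1 arrays and 7122, 6781 and 6857 on the DEC205 arrays (-2.59 ± 0.39, adjusted p = 2.86e-05). Hmox1 (-1.845) and Ccr2 (-1.69) were lower too. Of 9 neutrophil markers 2 were higher (2330 to 2859 against 1209 to 1684), Mmp9 (2.77, adjusted p = 2.26e-07 by limma) and Csf3r (1.96). S100a8 was not called and read 158, 521 and 312 against 204, 332 and 83.3. Of 9 erythroid and platelet markers 2 were higher (4651 to 5220 against 2510 to 2772). Of 6 melanoma markers 0 were called by limma, and 0 had an unadjusted p under 0.05 (1094 to 1292 against 969.5 to 1262). The defining genes of B, T and NK cells given here as not called were named after their values were seen, and the part of other cells in the differences was not tested.

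Some of these calls were lost when 1 array was left out. Siglech, a plasmacytoid DC receptor, lost its call without 33D1 array 3 (adjusted p = 0.0907), where it was highest. Bank1 lost it without DEC205 array 2 (0.0539). Ctsw lost it without 33D1 array 3 or DEC205 array 1 (0.0774 to 0.0821), Fasl without 33D1 array 3 or DEC205 array 1 or 2 (0.0527 to 0.0858), and Klrk1, the lower NK marker, without 33D1 array 1 or 3 or DEC205 array 1 or 2 (0.0791 to 0.103). The count of higher NK markers was 3 without 33D1 array 3 and without DEC205 array 1.

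The last question was whether the subset difference itself differed between Flt3L and wild-type mice, tested as the difference in Flt3L mice minus that in wild-type mice on separate arrays. By limma 7 of 13284 genes (0.0527%) had a difference shifted toward 33D1 in Flt3L mice and 1 (0.00753%) a difference shifted toward DEC205, and 634 had an unadjusted p under 0.05. Olfm1, olfactomedin 1, a secreted glycoprotein, read 433, 571 and 630.3 on the 33D1 arrays and 5373, 5559.7 and 4893 on the DEC205 arrays in Flt3L mice and 35.1, 25.6 and 24.4 on the 33D1 arrays and 4054, 3068 and 2657 on the DEC205 arrays in wild-type mice, differences of -3.18 and -5.41 (2.23 ± 0.26, adjusted p = 0.000594 for the change). Its level in 33D1 DCs was higher on every Flt3L array than on any wild-type array. Ltb read 15826, 15309.9 and 15244 on the 33D1 arrays and 1374, 696 and 1564 on the DEC205 arrays in wild-type mice, a difference of 3.70 against 5.95 in Flt3L mice (2.25 ± 0.30, adjusted p = 0.0023). Here the 33D1 arrays of both kinds of mice were close, and the DEC205 arrays of wild-type mice were the brighter ones. For each of the 15 genes highest in 33D1 DCs, Ltb among them, DEC205_WT array 3 was the highest of its group. Cd7 read 135, 22.3 and 562 there on arrays 1 to 3. Without DEC205_WT array 3 the change of Ltb was 2.04 (adjusted p = 0.00935 by limma). The part of 33D1 transcripts on the DEC205 arrays of wild-type mice was not tested. Rtl8c, a gene derived from a retrotransposon, moved the other way (-1.55 ± 0.23, adjusted p = 0.00931), with 592, 461 and 641 on the 33D1 arrays and 6605, 6769 and 7012 on the DEC205 arrays in Flt3L mice and 1372, 1255 and 1044 on the 33D1 arrays and 5020.3, 5301 and 4175 on the DEC205 arrays in wild-type mice. Il6st, gp130, the signalling chain for IL-6, had differences of 1.86 and 0.54 (1.31 ± 0.22, adjusted p = 0.0303). Its DEC205 arrays in wild-type mice read 1902, 1742 and 1756, above the 675, 605 and 789.5 of Flt3L mice. The others were Slc27a2, a fatty acid transporter, Mtss1, a membrane-bending protein, Spry2, an inhibitor of receptor tyrosine kinases, and Frmd4b. Pool sizes differed between the 2 kinds of mice, and pool size, ligand and tumour cannot be told apart here.

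Few of these 8 were stable. The replicate block on the 12 DC arrays also pairs the wild-type arrays by number. Their same-number deviations correlated with r of 0.336, -0.164 and -0.16, so their values do not show such a pairing. With the replicate block on the 12 DC arrays Slc27a2 lost its call (adjusted p = 0.0844, against 0.0319 on the same arrays unblocked), and Mtss1 (0.208) and Spry2 (0.157) were uncalled with the block and without it (0.181 and 0.109). Without 1 array the number shifted toward 33D1 ran from 2 to 11 and toward DEC205 from 0 to 2. Olfm1 was called under every alternative run, and Ltb under all but median centring (adjusted p = 0.0757). Leaving out DEC205_WT array 3 took the call from Rtl8c (0.0515), and leaving out 1 array took it from Slc27a2 in 5 of 12 cases, Il6st in 8, Mtss1 in 10, Frmd4b in 11 and Spry2 in 12, with adjusted p up to 0.0856, 0.104, 0.138, 0.12 and 0.13. Of the genes called in Flt3L mice, 425 higher and 376 lower ones were not called in wild-type mice. These counts do not show a change between the mice, since the test above called 8 genes. The wild-type comparison called 1459 genes higher (11%) and 1528 lower (11.5%).

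**Figure D5:**
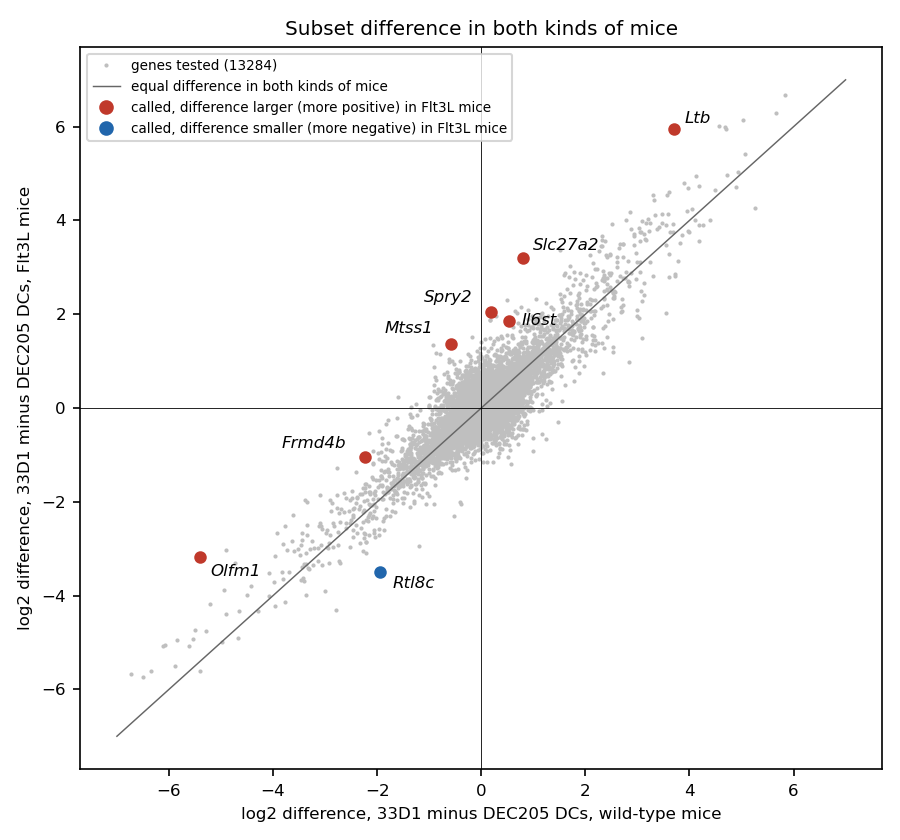
Difference between 33D1 and DEC205 DCs (log2) in wild-type mice (horizontal) and in Flt3L mice (vertical) for 13284 genes, 1 point each, with the line of equal differences. The 8 genes whose difference itself differed between the mice are labelled, 7 above the line and 1 below.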

How the data were processed

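RNA of sorted spleen DCs was measured on Affymetrix arrays, 3 for each subset of Flt3L mice, of 21 arrays in 7 groups. As deposited, each value is the linear intensity of a probe set, for which the submitters' processing notes name GCOS and MAS5. Which versions were used is not given in the sources used here. Per the labels' protocols, RNA was prepared with a Qiagen Mini kit and labelled as biotinylated cRNA. A 2% trimmed mean between 499.5 and 500 on every array shows that the arrays had been scaled to one brightness before deposit, so a change of total RNA cannot be seen.

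Of 45101 probe sets, 34945 had exactly 1 gene symbol in the platform annotation, 932 had several, 9160 none, and 64 were controls. RefSeq identifiers matched 34741, and 0 symbols were updated. Probe sets with 1 symbol and a signal over 156.3 (the table median) on at least 3 arrays were kept, 23946 in all, for 13284 genes. Of these, 6068 genes had more than 1 kept probe set, and 10 had probe sets called in opposite directions, none of them described here. Values were log2(signal + 48.6), where 48.6 is percentile 25 of the table. They were fitted with limma 3.58.1 in R 4.3.3 (lmFit, eBayes with trend) to all 21 arrays with a mean per group (14 residual degrees of freedom) and adjusted by Benjamini-Hochberg. The script was tested on simulated data.

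Equal replicate numbers were checked as pairs. The deviations from the group mean of same-numbered 33D1 and DEC205 arrays of Flt3L mice correlated over probe sets with r of 0.298, 0.181 and 0.184, and those of arrays with unequal numbers with r from -0.191 to 0.0132. The numbers were therefore taken to pair these arrays, which the labels do not state. In wild-type mice the same-number values were 0.336, -0.164 and -0.16. The fit without the block is the one reported, and the blocked value stands where it changes a call.

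Named genes are the 15 highest and 15 lowest calls without overlap, every gene called in the test between the mice, and 4 markers of the subsets. Up to 8 calls of each gene list with the largest difference were added. So was any member of the lists on sort antigens, transcription factors, Notch, MHC, Sirp, Fc receptors and the oxidase. The members and the lists were chosen with earlier results of these data known, so their counts are descriptions. Alternatives were other normalizations, offsets, filters, fits, probe set rules and arrays left out.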

Additional observations from a re-analysis of the deposited data

Results flagged for a closer look

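The difference between 33D1 and DEC205 DCs itself differed between Flt3L and wild-type mice for 8 genes by limma, tested as the difference in Flt3L mice minus that in wild-type mice (log2). The change was 2.40 for Slc27a2, a fatty acid transporter, whose 33D1 arrays read 438, 632 and 527 in Flt3L mice and 82.6, 70.7 and 35.3 in wild-type mice while its DEC205 arrays were at 21.8 or below in both. It was 2.25 for Ltb, lymphotoxin beta, and 2.23 for Olfm1, olfactomedin 1. For Mtss1, a membrane-bending protein, it was 1.96, with a difference of 1.37 in Flt3L mice and one of -0.59 in wild-type mice that was not called (adjusted p = 0.103). Only 1 of the 6 kept probe sets of Mtss1 was called in Flt3L mice. For Spry2, an inhibitor of receptor tyrosine kinases, the change was 1.87, with 2.05 in Flt3L mice and an uncalled 0.18 in wild-type mice (adjusted p = 0.701). Of its 2 kept probe sets, 1 was called in Flt3L mice. For Il6st, the signalling chain for IL-6, the change was 1.31. For Frmd4b it was 1.19, with 33D1 arrays at 1670, 1499 and 1523 in Flt3L mice and 815.5, 713 and 823 in wild-type mice. For Rtl8c it was -1.55, the 1 gene shifted toward DEC205 DCs in Flt3L mice.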

How the results depend on the processing

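In Flt3L mice the counts were 1530 higher and 1539 lower genes. Centring each array on its median left 910 higher and 1236 lower, and it moved the median of all genes from 0.04 to -0.06. Leaving out 1 of the 6 arrays gave 1281 to 1339 higher and 1223 to 1351 lower. A replicate block gave 2032 and 1971 on the 6 arrays and 1539 and 1566 on the 21 arrays, the latter fit chosen after seeing the data. The calls of named genes that a block changed stand with their results, and the blocks changed no other call of a named gene. All 3069 called genes kept their direction under each alternative that tested them (2728 of them at a filter of 500), and 2076 were also called with median centring, 2884 with quantile normalization, 2502 without 33D1 array 3 and 3011 with the block on the 6 arrays. Of 215 named genes that were called, 186 were called under every alternative run, 29 lost the call under at least 1 and 0 turned direction.

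The 7 higher and 1 lower genes of the test between the mice became 4 and 0 with quantile normalization, 2 and 0 with an offset of 1, 1 and 0 with median centring, 23 and 8 with an offset of 200, 12 and 2 when 1 probe set per gene was tested, and 24 and 2 with array weights. Without the intensity trend 4 were higher, and at a filter of 500, 2 were lower. Leaving out 33D1_Flt3L array 3 and DEC205_WT array 3 together gave 2 and 0. The replicate block gave 3 lower on the 12 DC arrays, where it pairs the wild-type arrays too, and 2 lower on the 21 arrays. Leaving out 1 array gave 2 to 11 higher and 0 to 2 lower, 2 higher without 33D1_Flt3L array 3 and 11 without DEC205_Flt3L array 3. The cause of these changes was not tested. Stat5a lost its call with median centring (0.55, adjusted p = 0.108 by limma), and Fscn1 and Marchf1 lost theirs with an offset of 1.

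The 3 arrays a subset, signals near the bottom of the scale and an offset that shrinks dim genes limit the precision.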
